A study of Mus musculus with 6 samples.

Results

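The genes described here encode lysosomal enzymes, lysosomal membrane proteins, the subunits of the vacuolar proton pump (V-ATPase), the cholesterol export proteins Npc1 and Npc2, and the transcription factors Tfeb and Tfe3. They were chosen by gene symbol alone, and 45 of the 13283 genes in the deposited table matched. Of these 44 are described, 43 protein coding and 1 a pseudogene (Atp6v0c-ps2). RNA-seq was done on an immortalized mouse brown preadipocyte (BAT) line that stably expresses Cas9, differentiated in culture. The 3 MICT1 KO libraries came from knockout pools made with 2 sgRNAs against MICT1, a microprotein of brown adipocytes, and the labels do not tell which pool each library came from. The 3 control libraries (Scr) came from the same line transduced with a scrambled sgRNA, and their label gives the genotype WT. All 6 cultures were taken at day 6 of differentiation after 10 µM forskolin, an activator of adenylyl cyclase, for 6 h, so no untreated culture stands beside them. MICT1 was not analysed here, and the group labels were not checked on it. Nothing in the labels says that the libraries of a group came from separate pools, and the p-values measure the spread between these libraries.

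Lysosomes break down proteins, glycans and lipids with hydrolases that work in acid, and the V-ATPase supplies that acid by pumping protons into the lumen. The pump has a V1 part in the cytosol, which hydrolyses ATP, and a V0 part in the membrane, which carries the protons. Many genes of this organelle carry the base motif CACGTG near their start, and Tfeb and Tfe3, of the MiT/TFE family, are known to bind that motif when nutrients are scarce. In adipocytes lysosomes take part in autophagy, lipid droplet turnover and the remodelling of the cell during differentiation.

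Promoters are shown first because this motif is a feature that some of the genes share beyond their names. RefSeq windows (GRCm38.p6, from 250 bases before to 50 after the annotated start) were at hand for 34 of the 44 genes. CACGTG, which reads the same on both strands, stood in the windows of 10 of these 34 (29.4%), against 11.9% of the 9995 tested genes with a window and 8.09% of all 27025 genes with a window. TCACGTG, searched on both strands and a longer form of the same matches, stood in 23.5% against 7.14% of the tested genes. The related CATGTG was in 5.88% of these genes and in 9.92% of the tested genes. In the sequences below the capitals mark CACGTG, and all are written 5′ to 3′ on the strand of the gene. Lamp1 is shown because its window held 4 matches, the most of any of the 34, within the 68 bases just before its start (chr8:13159093-13159160, plus strand). The others are 1 site each from genes that were higher (Ctsf, chr19:4855074-4855103, plus strand), lower (Ctsd, chr7:142387908-142387937, Atp6v0b, chr4:117887348-117887377, and Atp6v0d1, chr8:105566050-105566079, all minus strand) or not called (Mcoln1, chr8:3500462-3500491, plus strand) in MICT1 KO cells. The Atp6v0d1 site lies across the annotated start and the others lie before it.
Lamp1: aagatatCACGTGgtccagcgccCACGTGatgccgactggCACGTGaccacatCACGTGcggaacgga
Ctsf: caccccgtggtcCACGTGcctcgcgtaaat
Ctsd: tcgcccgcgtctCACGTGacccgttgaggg
Atp6v0b: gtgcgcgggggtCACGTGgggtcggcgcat
Atp6v0d1: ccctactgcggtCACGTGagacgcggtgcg
Mcoln1: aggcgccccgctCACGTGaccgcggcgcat
The other genes with a match were Atp6v0e, Atp6v1a, Ctsa and Ctsl. By the calls given further on, CACGTG was in the windows of 3 of 13 genes that were higher, 3 of 6 that were lower and 4 of 14 that were not called. The windows of Tfeb and Tfe3 held none. A match is a description of these letters and not of a bound site.

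The values are a normalized signal per gene, read as estimated reads divided by a size factor per library, and the libraries correspond to between 15440309 and 17917646 estimated reads. The highest value of Scr replicate 2 was that of Rn45s, the ribosomal RNA precursor, at 319163, while Scd1 or Eef1a1 led the other 5 libraries. Genes that reached 10 or more in 3 or more libraries were tested as log2(value + 1) with limma-trend, p-values were adjusted by the Benjamini-Hochberg method over all 12507 genes tested, and a gene was called at an adjusted p under 0.05. Fold changes are on that scale, which understates the change of low genes. The comparison of MICT1 KO with Scr moved much of the table, since 28.3% of all tested genes were called lower and 28.5% higher. With a fold of at least 1.5 as well, the shares were 11.5% lower and 14.4% higher. The 10 adipocyte markers were all lower in MICT1 KO cells, with a summed level of 7715 to 9343 CPM (signal scaled to a common library total) in Scr and 921 to 1321 CPM in MICT1 KO libraries. Fabp4, the fatty acid carrier and by RPKM (signal per transcript length) the highest of them, fell from 3640 ± 330 to 374 ± 108 RPKM (SD, n = 3 each). Lpl, the highest of them by signal, fell from 55039 ± 5481 to 10184 ± 1255 (SD, n = 3 each), by 5.41-fold, against 10.0-fold for Fabp4. Of 10 progenitor and fibroblast markers, 8 were listed and 6 tested, with 3 higher and 2 lower, and their summed level was 2227 to 2593 CPM in Scr and 3062 to 3257 CPM in MICT1 KO libraries. Their changes were mixed: Col1a1 rose from 17955 ± 585 to 30595 ± 2507 and Col3a1 was not called (16430 ± 1819 and 15855 ± 968, SD, n = 3 each), while Dlk1 fell from between 661 and 727 to between 44.3 and 89.1. Of 16 macrophage and osteoclast markers 4 were listed, with a summed level of 16.6 to 23.1 CPM in Scr and 31.8 to 39.2 CPM in MICT1 KO libraries, of which Cd14 rose and Cd68, Csf1r and Mrc1 were not called. Cd14, the highest, went from 192 ± 54.8 to 444 ± 49.8 (SD, n = 3 each), and Adgre1, Ptprc, Lyz2 and Tyrobp are not listed in the table. In bulk RNA a smaller share of cells of a type and less RNA per cell cannot be told apart, and the part of these marker shifts in the results below was not tested.

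Of the 44 genes 43 were tested, since Atp6v1b1 stayed below the limit. In MICT1 KO cells 17 of the 43 (39.5%) were higher, 9 (20.9%) were lower and 17 were not called. These shares stand against 28.5% and 28.3% of all tested genes. The higher genes included cathepsins, glycosidases, membrane proteins and pump genes, and the pump subunits split in both directions. At least 1.5-fold higher were Ctsk, Man2b2, Ctsf and Gusb (4 of 43), and at least 1.5-fold lower were Tfeb, Ctsh and Atp6v1c1 (3 of 43). Both shares were smaller than those of all tested genes with that fold, 14.4% higher and 11.5% lower. Ctsk passed the limit on low values through its MICT1 KO libraries alone and so had to differ to be tested. In a count made without it after the data were seen, 16 of 42 were higher (38.1%), 3 of them by at least 1.5-fold. The median log2 fold change of the 43 was 0.03 (between -0.0197 without Scr replicate 1 and 0.0886 without Scr replicate 3, where 42 were tested), against -0.01 for all tested genes. Without Ctsk the largest fold was the 2.13-fold fall of Tfeb. The MICT1 KO values lay wholly above the Scr values for 16 genes, wholly below for 10, and overlapped for 17. Over all tested genes these counts were 3859 above, 3901 below and 4747 overlapping of 12507. MICT1 KO replicate 1 was the highest library of its group in 31 of the 43 genes and replicate 3 the lowest in 26. Such counts were not made over all tested genes. The median coefficient of variation of the 43 was 5.61% in Scr and 6.76% in MICT1 KO libraries.

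**Figure D1:**
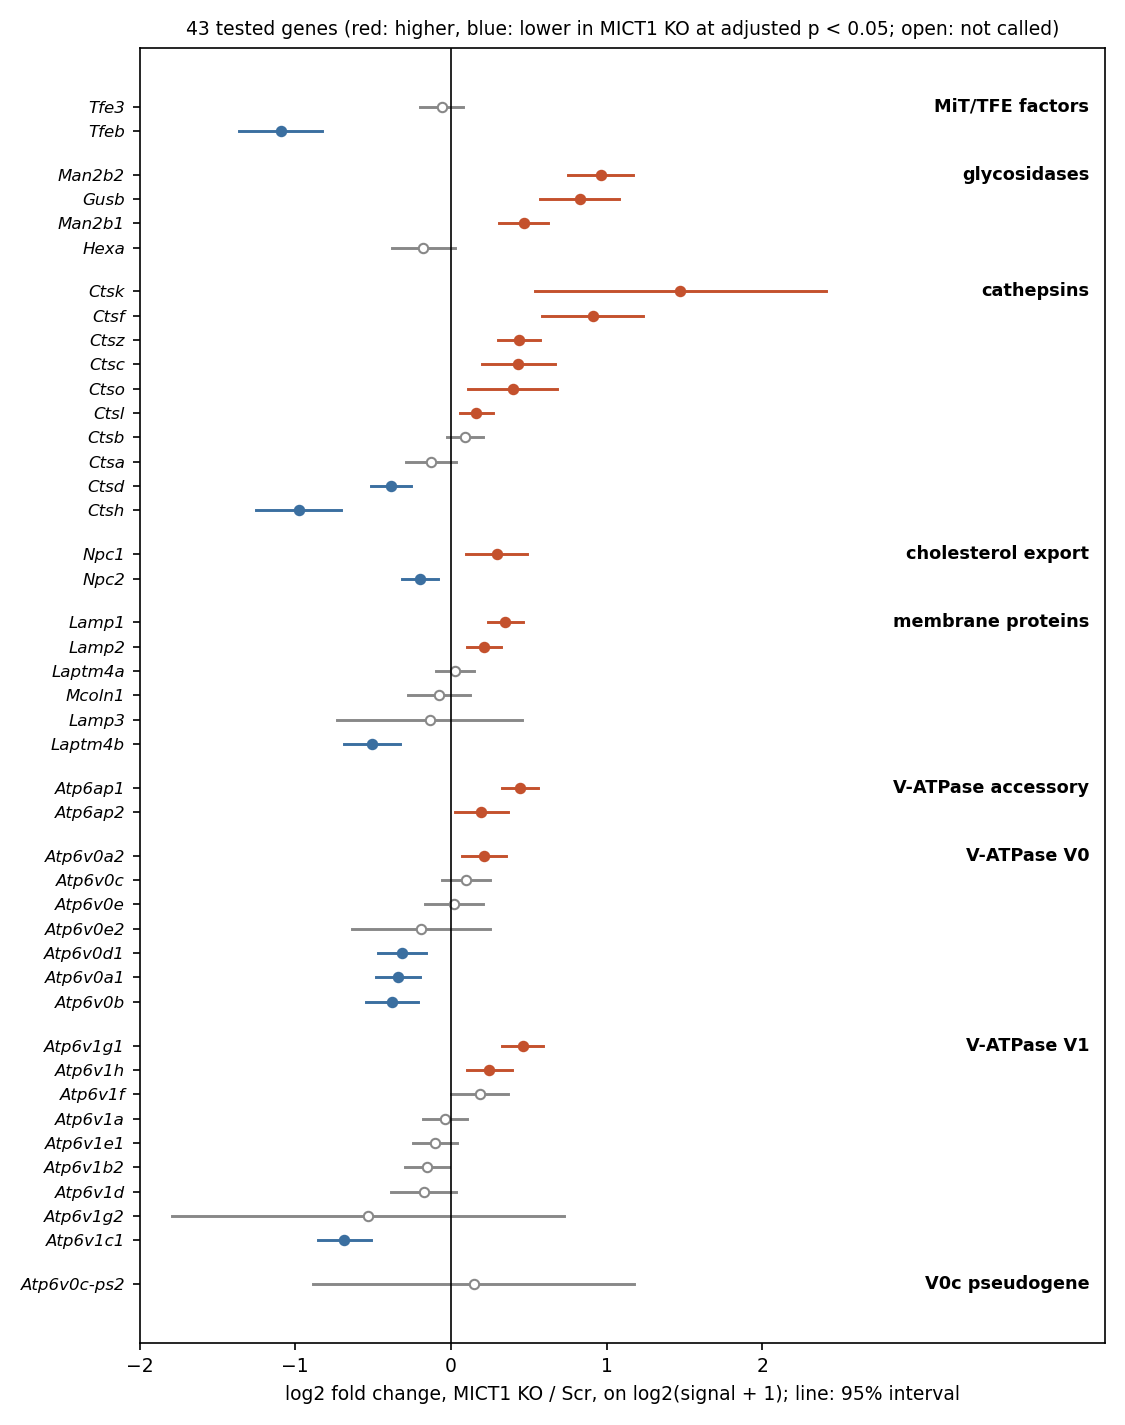
Log2 fold change of MICT1 KO over Scr (x axis) for the 43 tested genes, grouped by role, with lines for 95% intervals from limma-trend. Red points are the 17 higher genes, blue points the 9 lower genes and open points the 17 that were not called; 3 of 4 glycosidases lie on the higher side, and the V0 and V1 subunits lie on both sides of 0.

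The transcription factors parted. Tfeb (chr17:47737037-47792416), a driver of lysosomal and autophagy genes, was lower in MICT1 KO cells by 2.13-fold. Its signal was 366, 319.8 and 352 in Scr against 161, 162 and 161 in the MICT1 KO libraries. Every MICT1 KO value lay below every Scr value, and the log2 fold change was -1.09 ± 0.13 (SE, n = 3 each, limma-trend adjusted p = 3.19e-07). Tfe3 (chrX:7762530-7775202), a related factor with the same motif, had 1325, 1383 and 1392 in Scr against 1316, 1373 and 1250.1 in MICT1 KO libraries. These ranges overlapped, and its log2 fold change of -0.06 had a 95% interval from -0.20 to 0.08 (limma-trend adjusted p = 0.470). Scaled by transcript length, Tfeb made up 28.3%, 24.8% and 26.5% of the summed level of both factors in Scr against 14.9%, 14.4% and 15.5% in MICT1 KO libraries. The groups did not overlap, which in an exact two-sided permutation test of 3 against 3 libraries gives p = 0.1, the smallest that this design allows. The pair was added after its values were seen, so this p-value is descriptive only.

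**Figure D2:**
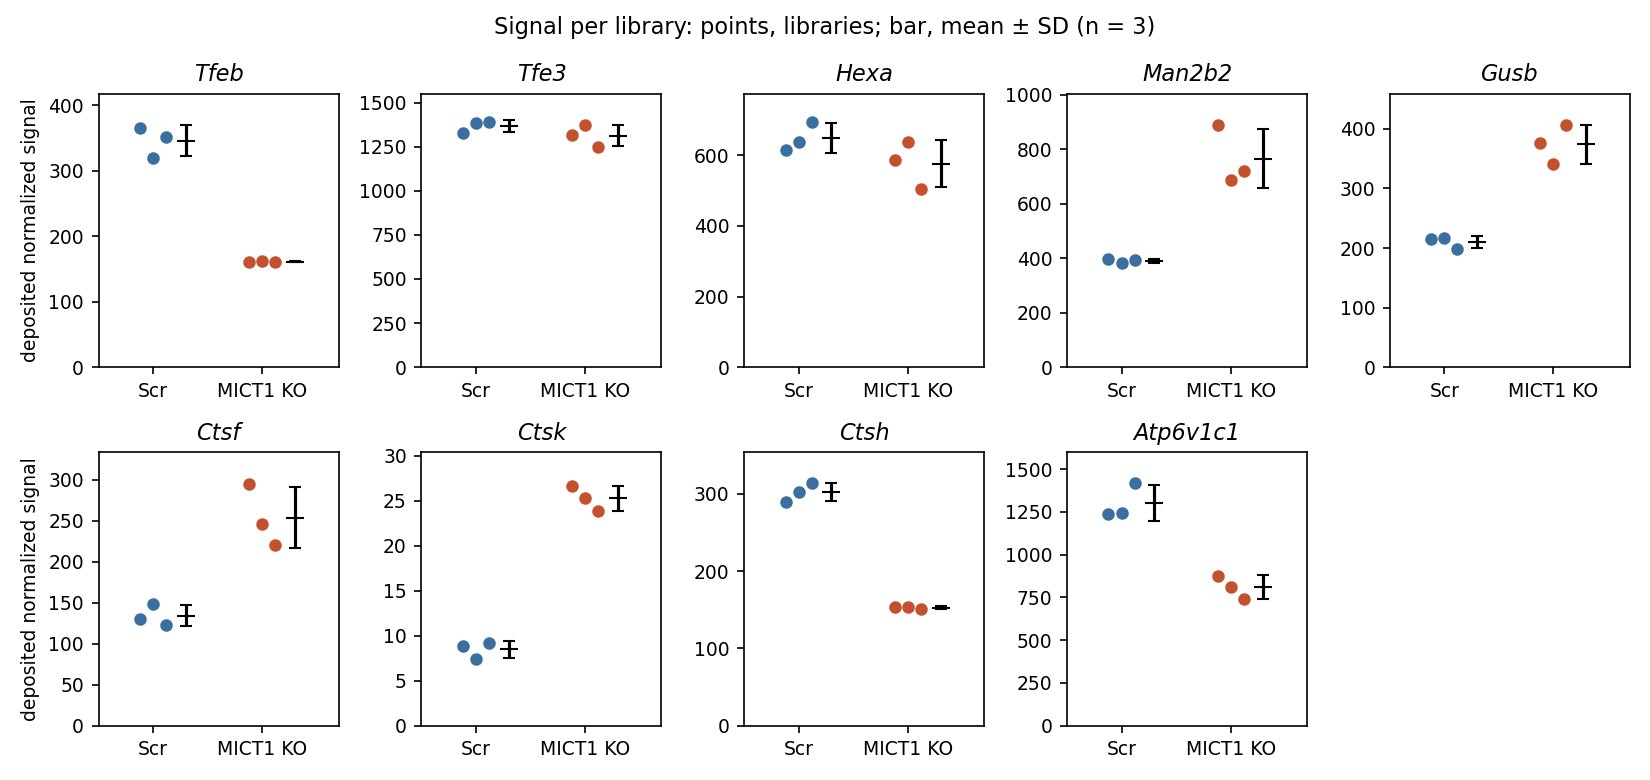
Deposited normalized signal (y axes from 0) in the 3 Scr and 3 MICT1 KO libraries for the 7 genes called with at least 1.5-fold and for Tfe3 and Hexa. Points are libraries and bars the mean ± SD; Tfe3 and Hexa overlap between the groups, and the other 7 genes do not.

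Glycosidases, which cut sugars from glycoproteins, glycolipids and matrix glycans, were higher in 3 of the 4 genes described (75%), and none was lower. Of all tested genes 28.5% were higher and 28.3% lower. The median log2 fold change of the 4 glycosidases was 0.65. Man2b2 (chr5:36806813-36830649), an alpha-mannosidase that trims the core of N-glycans, had 398, 381 and 392 in Scr against 888, 688 and 719 in MICT1 KO libraries (log2 fold change 0.96, limma-trend adjusted p = 5.83e-08). Gusb (chr5:129989011-130003049), beta-glucuronidase, had 216, 216 and 198 in Scr against 376, 340.3 and 406 in MICT1 KO libraries (0.83, limma-trend adjusted p = 6.98e-06). Neither gene overlapped between the groups, and Man2b2 was spread more widely in MICT1 KO (SD 107) than in Scr (SD 8.43). Man2b1, the main lysosomal alpha-mannosidase, rose from 1224 ± 105 to 1692 ± 133 (SD, n = 3 each), a log2 fold change of 0.47 (limma-trend adjusted p = 2.10e-05).

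Hexa (chr9:59539540-59565109), which takes part in the breakdown of gangliosides, had 614, 639 and 695 in Scr against 585, 638 and 505 in MICT1 KO libraries. The Hexa ranges overlapped, with a log2 fold change of -0.18 and a 95% interval from -0.38 to 0.02 (limma-trend adjusted p = 0.126), and it was called lower without MICT1 KO replicate 2 (-0.25, adjusted p = 0.0427).

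Among the cathepsins, the proteases of the lysosome, 6 of 10 were higher, 2 were lower and 2 were not called. Without Ctsk, 5 of 9 (55.6%) were higher and 2 were lower, against 28.5% and 28.3% of all tested genes. The median log2 fold change of the 10 was 0.28 (0.16 without Ctsk, and 0.14, 0.17 and 0.17 without MICT1 KO replicate 1, 2 or 3). Ctsf (chr19:4855165-4860918), a cysteine protease, had 131, 148 and 123 in Scr against 295, 245 and 221 in MICT1 KO libraries, without overlap (log2 fold change 0.91 ± 0.16 SE, limma-trend adjusted p = 4.09e-05). Ctsk (chr3:95499210-95509387), the collagen-degrading cathepsin known from osteoclasts, was low throughout, at 8.90, 7.42 and 9.16 in Scr against 26.7, 25.3 and 23.8 in MICT1 KO libraries. The Ctsk groups did not overlap (log2 fold change 1.47 ± 0.45 SE, limma-trend adjusted p = 0.00829), but Ctsk passed the limit on low values through its MICT1 KO libraries alone, so it had to differ to be tested. Ctsh (chr9:90054267-90076095), an aminopeptidase, went the other way, with 289.8, 302 and 313 in Scr against 153, 154 and 150.3 in MICT1 KO libraries. That is 1.97-fold lower without overlap, a log2 fold change of -0.98 ± 0.13 (SE, n = 3 each, limma-trend adjusted p = 2.22e-06).

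The most abundant cathepsins changed less than Ctsf, Ctsk and Ctsh. Ctsd, the aspartic protease, had 2908, 3039.6 and 3249 in Scr against 2504, 2234 and 2314 in MICT1 KO libraries, all lower (log2 fold change -0.38, limma-trend adjusted p = 2.22e-05). Ctsz, a carboxypeptidase, had 1347, 1245 and 1330.0 in Scr against 1821, 1701 and 1779 in MICT1 KO libraries, all higher (0.43, limma-trend adjusted p = 7.56e-06). Ctsl, a cysteine endopeptidase, had 6332, 6532 and 6204 in Scr against 7316, 7022 and 6999 in MICT1 KO libraries, a small and non-overlapping difference (0.16, limma-trend adjusted p = 0.0106). The endopeptidase Ctsb and the carboxypeptidase Ctsa were not called. Ctsb had 5053, 5124 and 5295 in Scr against 5915, 5293 and 5274 in MICT1 KO libraries (0.09, 95% interval -0.03 to 0.21). Ctsa had 1189.7, 1267 and 1212 in Scr against 1220.0, 1000.1 and 1152 in MICT1 KO libraries (-0.13, 95% interval -0.29 to 0.03), and both genes overlapped between the groups.

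The less abundant Ctsc and Ctso were also higher. Ctsc, dipeptidyl peptidase I, had 336, 321 and 307 in Scr against 478, 379 and 449.9 in MICT1 KO libraries (log2 fold change 0.43, limma-trend adjusted p = 0.00264). Ctso, a cysteine protease, had 229, 186 and 202 in Scr against 244, 269.7 and 302 in MICT1 KO libraries (0.40, limma-trend adjusted p = 0.0180). Neither overlapped between the groups, although the lowest MICT1 KO value of Ctso was close to the highest Scr value, and it was not called without Scr replicate 2 or MICT1 KO replicate 3 (adjusted p = 0.0814 and 0.0921).

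The make-up of the cathepsin pool shifted with these changes. Per transcript length Ctsd was the largest share in Scr libraries, at 26.4%, 27.3% and 28.6%, and it was 20.5%, 20.1% and 20.2% in MICT1 KO libraries. That order depends on the transcript lengths used. By signal, Ctsl (6356 ± 165) and Ctsb (5158 ± 124) lay above Ctsd (3066 ± 172, SD, n = 3 each) in Scr libraries. Ctsz went from 18.1%, 16.5% and 17.3% to 22.0%, 22.6% and 23.0%. Ctsh fell from 3.55% ± 0.08 to 1.74% ± 0.08 (SD, n = 3 each). Each of these shares separated the groups (exact permutation p = 0.1 each), while that of Ctsb, 20.7% ± 0.1 in Scr and 21.3% ± 0.5 in MICT1 KO (SD, n = 3 each), overlapped (p = 0.2). With the 6 paralog pairs, the 10 cathepsins and 4 summed levels, 20 such values were compared, none of which can pass an adjusted threshold of 0.05 with 3 libraries a group. The summed signal of the cathepsins was 1105 ± 10.1 CPM in Scr and 1163 ± 46.4 in MICT1 KO libraries, and that of cathepsins and the 4 glycosidases together 1256 ± 6.41 and 1372 ± 57.5 (SD, n = 3 each, exact permutation p = 0.1 for both).

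**Figure D3:**
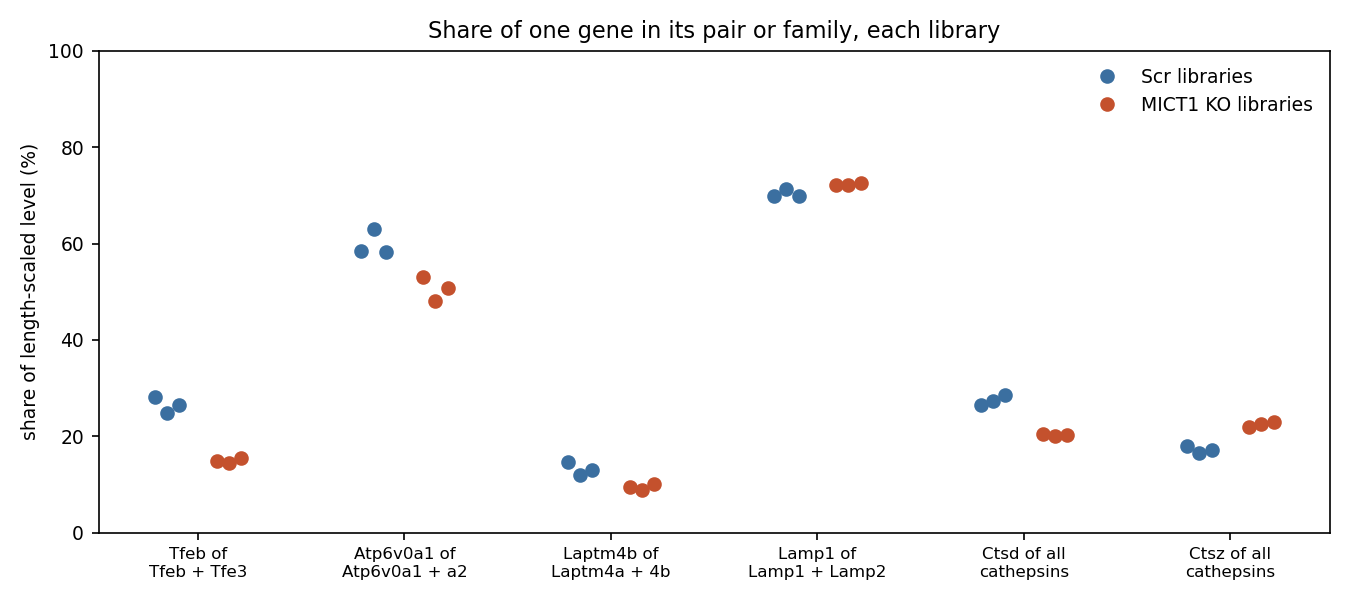
Share (%) of the length-scaled level of a gene in its pair, or in all 10 cathepsins, for each Scr and MICT1 KO library. The Tfeb share, of a pair added after its values were seen, sits at 24.8 to 28.3% in Scr and 14.4 to 15.5% in MICT1 KO libraries. The Lamp1 share differs by 1.94 percentage points between the group means.

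Of the 6 other membrane proteins of the lysosome, 2 were higher (33.3%), 1 was lower (16.7%) and 3 were not called, against 28.5% higher and 28.3% lower of all tested genes. Lamp1 and Lamp2 are the heavily glycosylated proteins that line the lysosomal membrane. Lamp1 (chr8:13159161-13175338) had 7904, 8437 and 8164 in Scr against 10928, 10025 and 10287 in MICT1 KO libraries (log2 fold change 0.35 ± 0.05 SE, limma-trend adjusted p = 1.00e-05). Lamp2 had 5534, 5503 and 5670.1 in Scr against 6822, 6243 and 6318 in MICT1 KO libraries (0.21 ± 0.05 SE, limma-trend adjusted p = 0.00188). Both were higher in every MICT1 KO library, and the share of Lamp1 in the pair went from 70.3% ± 0.8 to 72.3% ± 0.2 (SD, n = 3 each). Lamp3, a member of that family restricted to few cell types, had 48.7 ± 6.65 in Scr and 44.8 ± 10.2 in MICT1 KO (SD, n = 3 each) and was not called.

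Laptm4a and Laptm4b, small membrane proteins of late endosomes and lysosomes, differed from each other. Laptm4b had 791, 715 and 731 in Scr against 535, 498 and 540.0 in MICT1 KO libraries, a non-overlapping fall (log2 fold change -0.51 ± 0.09 SE, limma-trend adjusted p = 3.81e-05). Laptm4a had 4313, 4919.5 and 4558 in Scr against 4798, 4728 and 4492 in MICT1 KO libraries and overlapped (0.03, 95% interval -0.10 to 0.15). Laptm4b was 13.2% ± 1.3 of the length-scaled pair in Scr and 9.48% ± 0.57 in MICT1 KO (SD, n = 3 each, exact permutation p = 0.1). Mcoln1, the lysosomal cation channel TRPML1, had 490 ± 35.9 in Scr and 463 ± 9.02 in MICT1 KO (SD, n = 3 each) and was not called. The cholesterol export proteins moved apart. Npc2, which carries cholesterol in the lumen, fell from 4258 ± 114 to 3706 ± 158 (log2 fold change -0.20, limma-trend adjusted p = 0.00386), and Npc1, the membrane protein it hands cholesterol to, rose from 679 ± 72.9 to 833 ± 81.6 (SD, n = 3 each, 0.29, limma-trend adjusted p = 0.0110). Npc1 was not called without Scr replicate 3 or MICT1 KO replicate 1 (adjusted p = 0.0780 and 0.0628).

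Genes of the V-ATPase were called in both directions. Of 18 tested pump genes 5 were higher (27.8%), 4 were lower (22.2%) and 9 were not called, shares near or below the 28.5% and 28.3% of all tested genes, with a median log2 fold change of -0.07. The summed signal of the 19 pump genes was 1429, 1433 and 1482 CPM in Scr against 1587, 1495 and 1419 in MICT1 KO libraries. These sums overlapped (exact permutation p = 0.5).

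In the V1 part 2 of 9 tested genes were higher (22.2%) and 1 was lower (11.1%), both below the 28.5% and 28.3% of all tested genes. The median log2 fold change was -0.10 (-0.042 without Scr replicate 3 and -0.050 without MICT1 KO replicate 3). Atp6v1c1 (chr15:38661904-38692444) encodes subunit C, which joins the stator of V1 to V0 and is released when the pump comes apart. It had 1238, 1243 and 1421 in Scr against 877, 812 and 738 in MICT1 KO libraries. Every MICT1 KO value was lower, by 1.61-fold in the mean (log2 fold change -0.68 ± 0.08 SE, limma-trend adjusted p = 3.55e-07). Atp6v1g1 (chr4:63544765-63550701), a subunit of the peripheral stalks, had 1415, 1489.7 and 1499 in Scr against 2095, 1991 and 1970.5 in MICT1 KO libraries, all higher (0.46 ± 0.06 SE, limma-trend adjusted p = 2.08e-06). Atp6v1h, a regulatory subunit, rose from 1384 ± 98.8 to 1639 ± 78.0 (SD, n = 3 each, log2 fold change 0.25, limma-trend adjusted p = 0.00478). The genes of the ATP-hydrolysing head were not called: Atp6v1a had 1335 ± 72.6 and 1301 ± 48.6, and Atp6v1b2 had 1675, 1748 and 1829 in Scr against 1710.3, 1522 and 1499 in MICT1 KO libraries (-0.15, limma-trend adjusted p = 0.0613). Atp6v1b2 was called lower without MICT1 KO replicate 1 (adjusted p = 0.0121). Atp6v1d, Atp6v1e1 and Atp6v1f, of the central and peripheral stalks, had log2 fold changes of -0.18, -0.10 and 0.18 and were not called either, except that Atp6v1f was higher without MICT1 KO replicate 3 (adjusted p = 0.0165). Of the alternative subunits, Atp6v1b1 was between 0.953 and 4.15 in the 6 libraries and Atp6v1g2 between 4.15 and 27.7, so the common form held over 98% of each pair in every library.

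In the V0 part 3 of 7 genes were lower (42.9%) and 1 was higher (14.3%), against 28.3% and 28.5% of all tested genes. Their median log2 fold change of -0.19 was -0.336, -0.080 and -0.118 without Scr replicate 1, 2 or 3, and -0.347 and -0.086 without MICT1 KO replicate 1 or 3. Subunit a anchors V0 and shapes the proton path, and its forms are known to differ in the compartment they serve. Atp6v0a1 (chr11:101009422-101063719) had 1749.7, 1967 and 1843 in Scr against 1578, 1402 and 1419 in MICT1 KO libraries, all lower (log2 fold change -0.34 ± 0.07 SE, limma-trend adjusted p = 0.000261). Atp6v0a2 (chr5:124629052-124724455) had 1654, 1533 and 1767 in Scr against 1869, 2023 and 1837 in MICT1 KO libraries, all higher (0.21 ± 0.07 SE, limma-trend adjusted p = 0.0113), but it was not called without Scr replicate 2 or MICT1 KO replicate 2 (adjusted p = 0.0870 and 0.0589). Per transcript length Atp6v0a1 therefore went from 58.5%, 63.1% and 58.2% of the pair to 53.0%, 48.0% and 50.7% (exact permutation p = 0.1). Atp6v0b, a proteolipid of the rotor ring, fell from 978 ± 42.9 to 753 ± 58.3 (-0.38, limma-trend adjusted p = 0.000424). Atp6v0d1, which couples the ring to V1, fell from 1207 ± 67.6 to 971 ± 65.6 (SD, n = 3 each, -0.31, limma-trend adjusted p = 0.00125). Atp6v0c, the main proteolipid of the ring, had 3495 ± 212 and 3758 ± 486 (SD, n = 3 each) and was not called, or was higher without MICT1 KO replicate 3 (adjusted p = 0.0332). Reads from it and from the pseudogene Atp6v0c-ps2 (9.52 to 14.6 in the 6 libraries) may have been assigned to either. The small subunits Atp6v0e and Atp6v0e2 were not called.

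Both accessory proteins of the pump were called higher. Atp6ap1, needed for V0 assembly, rose from 2502 ± 63.4 to 3401 ± 110 (SD, n = 3 each) without overlap (log2 fold change 0.44 ± 0.06 SE, limma-trend adjusted p = 8.90e-07). Atp6ap2, the prorenin receptor, had 1037, 1077 and 986 in Scr against 1314, 1203 and 1045 in MICT1 KO libraries. Its groups overlapped, and its log2 fold change of 0.19 was close to the threshold (limma-trend adjusted p = 0.0459). It was not called when any of the Scr libraries or MICT1 KO replicates 1 or 2 was left out, with an adjusted p of up to 0.233 (without MICT1 KO replicate 1, log2 fold change 0.12).

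**Figure D4:**
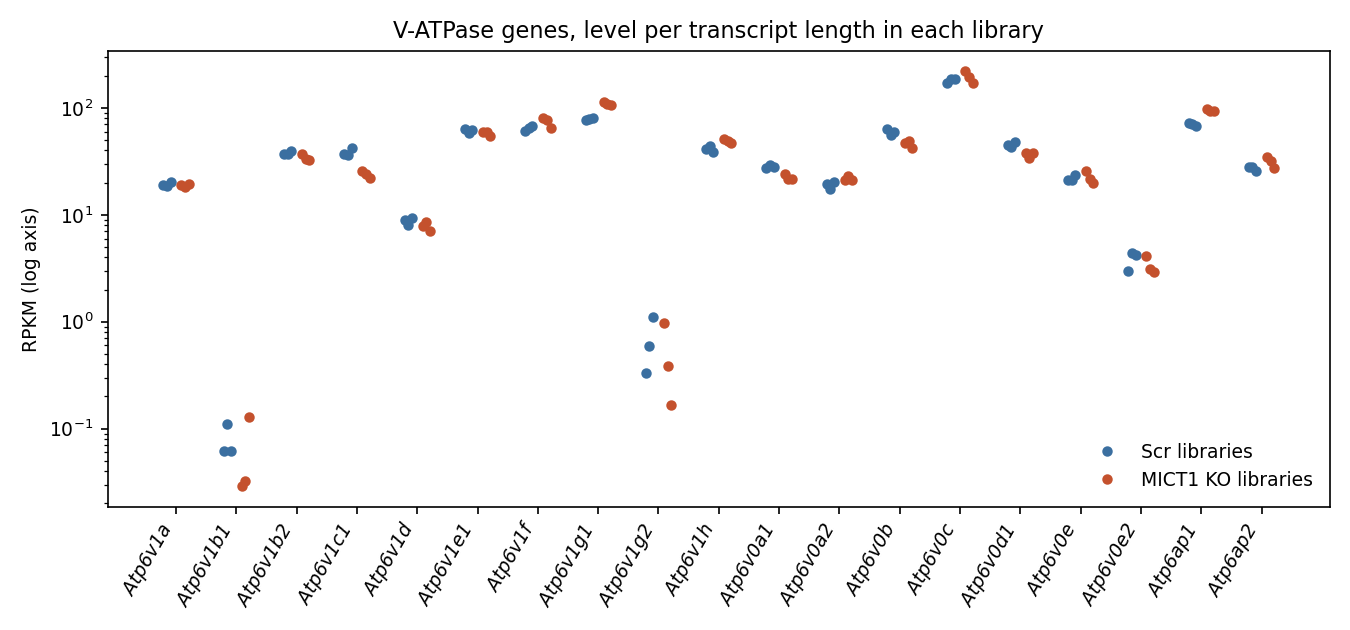
RPKM (log axis) of the 19 V-ATPase genes in each Scr and MICT1 KO library, V1 subunits first, then V0 and accessory proteins. Atp6v0c is the highest pump gene in both groups (means of 180 and 195 RPKM), Atp6v1g1 and Atp6ap1 lie higher and Atp6v1c1 lower in MICT1 KO libraries, and Atp6v1b1 and Atp6v1g2 are near the bottom.

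Levels were compared between genes as RPKM, that is, per length of the longest principal transcript. The order below depends on the transcript lengths used. By signal, Ctsl (6356 ± 165) lay above Lamp2 (5569 ± 88.8) and Atp6v0c (3495 ± 212, SD, n = 3 each) in Scr libraries. In Scr libraries Lamp1 was the highest of the 44 at 224 ± 3.81 RPKM, followed by Atp6v0c (180 ± 8.47), Laptm4a (158 ± 8.06), Lamp2 (94.4 ± 2.21) and Ctsd (88.0 ± 4.52, SD, n = 3 each). The first 4 kept that order in MICT1 KO libraries, at 286 ± 11.1, 195 ± 24.0, 161 ± 4.81 and 110 ± 4.68 RPKM, where the spread of Atp6v0c reached down towards Laptm4a. Ctsd moved from rank 5 to rank 12 (67.7 ± 3.60 RPKM), and Ctsz from rank 14 (55.5 ± 3.12 RPKM) to rank 7 (75.1 ± 2.30 RPKM). Tfeb, at 9.21 ± 0.768 and 4.31 ± 0.0365 RPKM, stood below Tfe3 (25.5 ± 0.409 and 24.5 ± 1.14 RPKM) in both groups. Neighbours such as Atp6v1c1 and Atp6v1b2 in Scr (38.4 ± 3.06 and 37.8 ± 1.44 RPKM) did not differ beyond their spread. The summed signal of all 44 genes was 4309 ± 41.5 CPM in Scr and 4625 ± 188 in MICT1 KO libraries (SD, n = 3 each, exact permutation p = 0.1).

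Other genes of the pathway were taken from lists set out by role. Of 44 further lysosomal hydrolases and activators that were tested, 21 were higher (47.7%) and 5 lower (11.4%), with a median log2 fold change of 0.30. Of all tested genes 28.5% were higher and 28.3% lower. Naglu and Ids, which degrade heparan sulfate, rose by 0.83 and 0.81 on the log2 scale (limma-trend adjusted p = 7.84e-06 and 1.47e-08). Gm2a, the activator that presents GM2 ganglioside for breakdown, had 1332, 1284 and 1692 in Scr against 681, 652 and 675 in MICT1 KO libraries. This was the largest fall of that list (-1.09 ± 0.09 SE, limma-trend adjusted p = 1.45e-09). Acp2, a lysosomal acid phosphatase, fell by 0.26 (limma-trend adjusted p = 0.0237), a call lost without Scr replicate 1 or 3 or MICT1 KO replicate 2 (adjusted p = 0.0703, 0.0571 and 0.0537). The count of lower genes in this list was 1 or 2 without each of those libraries or without MICT1 KO replicate 3.

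Of 29 further membrane proteins 12 were lower (41.4%) and 7 higher (24.1%), against 28.3% and 28.5% of all tested genes. Their median log2 fold change of -0.0023 was nevertheless close to that of all genes. That median was -0.149 without Scr replicate 3 and between -0.071 and -0.0084 without each other library. Slc38a9, an arginine sensor and amino acid transporter of the lysosome, fell by 1.05 on the log2 scale (limma-trend adjusted p = 3.08e-05), and Mfsd8, a transporter mutated in a neuronal ceroid lipofuscinosis, fell by 0.82 (limma-trend adjusted p = 5.52e-05). Ostm1, the partner of the chloride and proton exchanger ClC-7, rose by 0.82 (limma-trend adjusted p = 5.38e-07), and Tmem106b, a glycoprotein of the lysosomal membrane, rose by 0.58 (limma-trend adjusted p = 9.08e-07). The sorting machinery had 8 of 20 genes lower (40%, or 5 genes without MICT1 KO replicate 2) and 3 higher (15%). Sort1, the sorting receptor sortilin, which also goes with GLUT4 vesicles in adipocytes, had 1299, 1339.5 and 1514 in Scr against 109.6, 134 and 129.6 in MICT1 KO libraries. It was 11.1-fold lower (log2 fold change -3.47 ± 0.11 SE, limma-trend adjusted p = 2.48e-16), a larger difference than that of any of the 43 tested genes chosen by symbol. Vps26a, of the retromer that returns sorting receptors, fell by 0.56 (limma-trend adjusted p = 2.42e-07). Lmbrd1 and Gnptg, for cobalamin export and for the mannose 6-phosphate tag, rose by 0.51 and 0.38 (limma-trend adjusted p = 2.32e-05 and 0.00723).

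Regulators of pump assembly were mixed, with 4 of 11 lower (36.4%) and 3 higher (27.3%), against 28.3% and 28.5% of all tested genes. Dmxl2 and Dmxl1, the rabconnectins that help V1 join V0, fell by 0.93 and 0.40 on the log2 scale (limma-trend adjusted p = 8.28e-06 and 0.000125), and Ncoa7 and Oxr1, proteins that bind the pump, rose by 0.66 and 0.50 (limma-trend adjusted p = 0.000398 and 1.66e-07). Among 21 genes of mTORC1 at the lysosome, which holds MiT/TFE factors in the cytosol, 4 were lower (19%) and 1 was higher (4.76%). These shares were below those of all tested genes, and 16 genes were not called. The higher gene was Flcn, needed for that control, from 737 ± 51.0 to 1049 ± 39.0 (log2 fold change 0.51, limma-trend adjusted p = 1.07e-05). Rptor, the substrate-binding subunit of mTORC1, fell by 0.53 (limma-trend adjusted p = 1.55e-06) and Depdc5, of the GATOR1 complex, by 0.45 (limma-trend adjusted p = 0.000475). Of 34 autophagy genes 13 were lower (38.2%) and 8 higher (23.5%). Atg7 and Atg3, which conjugate LC3 to lipid, fell by 0.66 and 0.44 (limma-trend adjusted p = 7.31e-06 and 0.000395), while Atg2a and Wipi1, of the growing autophagosome, rose by 0.63 and 0.61 (limma-trend adjusted p = 3.46e-06 and 0.000114). The cathepsin inhibitors Cst3 and Cstb moved apart, by 0.17 and -0.25 (limma-trend adjusted p = 0.0177 and 0.00725). Cst3 was not called without Scr replicate 2 or MICT1 KO replicate 1 (adjusted p = 0.0555 and 0.0998), nor Cstb without MICT1 KO replicate 2 (adjusted p = 0.0584). Over all 161 such pathway genes 47 were lower (29.2%) and 44 higher (27.3%), near the shares of all tested genes, 28.3% and 28.5%.

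**Figure D5:**
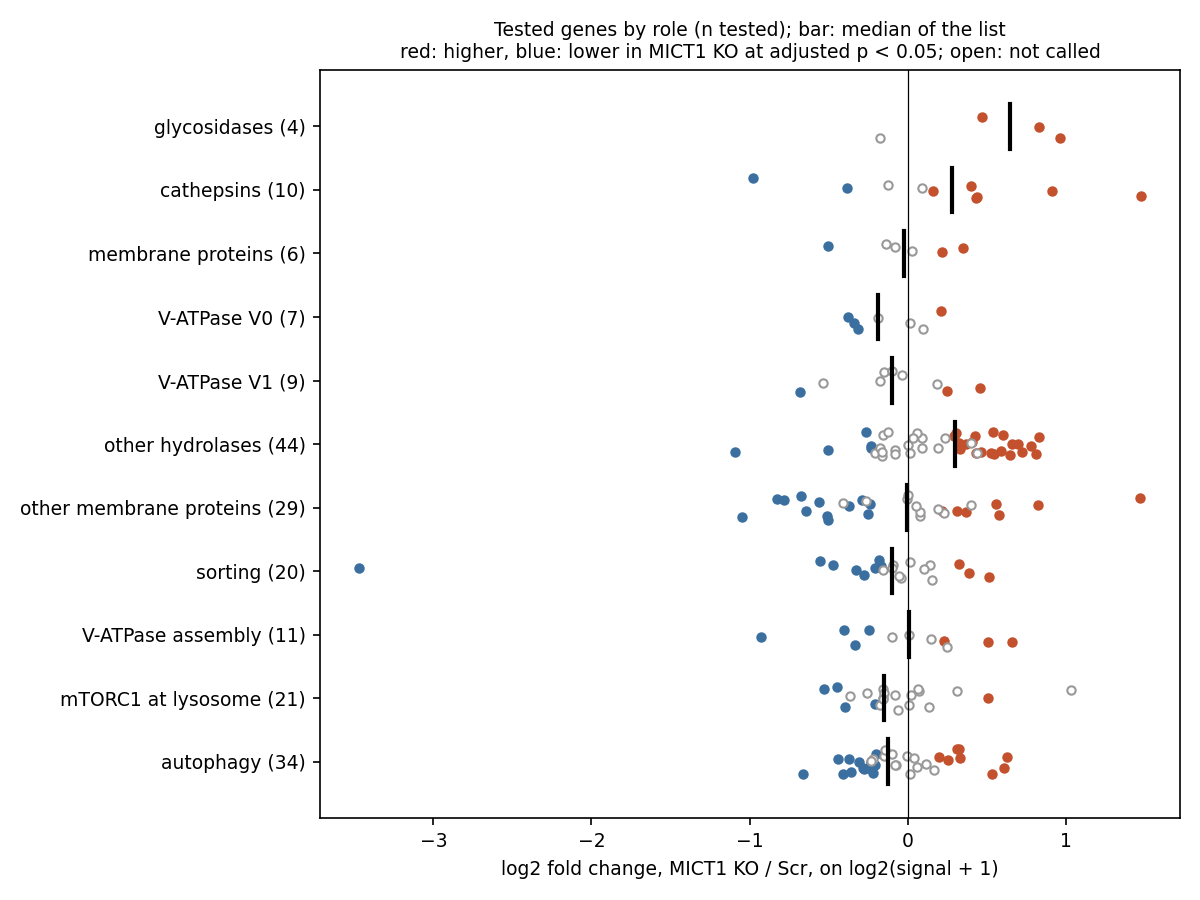
Log2 fold change of MICT1 KO over Scr (x axis) for each tested gene, by role, with the number tested in brackets and a bar at the median of the list. The medians of the glycosidases (0.65), cathepsins (0.28, or 0.16 without Ctsk) and other hydrolases (0.30) lie above 0. Those of the V0 (-0.19) and V1 (-0.10) subunits lie below. The point at -3.47 is Sort1.

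By the same name rule 19 further coding genes of RefSeq are not listed in the table, among them the pump subunits Atp6v0a4, Atp6v0d2, Atp6v1c2, Atp6v1e2 and Atp6v1g3 and the cathepsins Ctse, Ctsg, Ctss and Ctsw. Every listed value is above 0, and no value is given for these 19 genes.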

How the data were processed

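RNA-seq of 6 libraries (3 Scr, 3 MICT1 KO) was used. Per the methods, stranded total RNA libraries were sequenced paired-end and aligned with Partek software to NCBI38/mm10, and the submitters' processing notes name Partek, STAR and DESeq2 without roles. The authors deposited a normalized signal per gene, with 88.7% to 90.3% of values under 20 whole multiples (tolerance 0.01) of the value of 1 read, so no count test was run. Here log2(signal + 1) was fitted with limma-trend (limma 3.58.1, R 4.3.3) over 12507 genes (10 or more in 3 or more libraries, Benjamini-Hochberg). In simulated data with 200 genes changed by at least 1.5-fold among 12404, 193 (96.5%) were recovered. All genes had the same dispersion there, and neither smaller changes nor changes in genes with a Scr mean below 20 were simulated. RPKM used GENCODE vM21 lengths (longest APPRIS principal transcript, 98.9% of genes), and positions and promoters came from RefSeq GRCm38.p6. Shares were tested by exact permutation (SciPy 1.17.1). Members, lists and tests were chosen with earlier results of these data known, and the Tfeb pair was added after its values were seen. Of the rule's genes 1 is not reported here and stands in no count of members, though it stayed in the fit. Every other gene could be named. Values per library were given for genes called with at least 1.5-fold, MiT/TFE factors and paralog pairs, and from each pathway list the 2 largest rises and falls above 10 CPM were named, as were the highest markers. Alternatives were library total scaling, no filter, a maximum RPKM of at least 4, pseudocounts of 0.5 and 5, limma without trend, a replicate block, a 1.8-fold rule and each library left out.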

Additional observations from a re-analysis of the deposited data

How the results depend on the processing

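Leaving aside the 1.8-fold rule below, all 9 lower calls held in every alternative in which the gene was tested, and so did 12 of the 17 higher calls; Atp6ap2, Atp6v0a2, Ctsl, Npc1 and Ctso were not called in some. Without the trend in limma the first 4 of these had adjusted p of 0.152, 0.0696, 0.0561 and 0.0757. Ctsk, among the 12 higher calls that held, was tested in only 9 of the 13 alternatives. It was not tested when a MICT1 KO library was left out or with a maximum RPKM of at least 4, so its call could not be lost there. The median log2 fold change of the tested genes was 0.0210 with no filter, where 44 were tested. With a library left out it was between -0.0197 (without Scr replicate 1) and 0.0886 (without Scr replicate 3), and between 41 and 43 genes were tested. By the fold of 1.8 that the methods use, with p unadjusted but without the RPKM limit of the methods, 2 genes passed as lower and 3 as higher. Ctsk, among the 3, reached at most 1.07 RPKM, below the maximum of 4 that the methods ask for. With a library left out, some genes that were not called changed sign: Atp6v0e spanned -0.0928 to 0.107, Laptm4a -0.0197 to 0.0751, Atp6v1a -0.0635 to 0.00788, Lamp3 -0.280 to 0.0510 and Atp6v1g2 -0.948 to 0.0182. The median of the 6 membrane proteins was 0.0251 with a maximum RPKM of at least 4 and -0.0529 to 0.0337 with a library left out, that of the other membrane proteins 0.00203 under library total scaling and -0.121 with that RPKM limit, and that of the pump assembly genes -0.0419 to 0.0825 with a library left out. The median of all genes stayed between -0.02 and 0.00 in these settings. The cause of these moves was not tested.

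Replicate numbers did not pair the libraries, since deviations of same-numbered libraries correlated at -0.02, -0.02 and 0.06. With the replicate number as a block 9 genes were lower and 17 higher. With 3 libraries a group, genes below about 20 reads, such as Ctsk and Atp6v1g2, carry wide intervals.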
